A study of Homo sapiens with 4 samples.

Results

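The nuclear end of canonical Wnt signaling was examined through 10 genes: CTNNB1, the 4 TCF/LEF genes LEF1, TCF7, TCF7L1 and TCF7L2, the 4 TLE genes TLE1, TLE2, TLE3 and TLE4, and BCL9. They were taken by gene symbol from a table of 58365 genes, where each symbol had 1 row. H1 cells, an established human embryonic stem cell line, were induced toward mesoderm with activin A at 40 ng/ml and BMP4 at 50 ng/ml, as the labels give the doses, while the study's methods give them the other way round, and were collected at day 2. All 4 libraries had this induction. The 2 DMSO libraries had no inhibitor, and the 2 IWP2 libraries were treated with IWP2, a small molecule that blocks the acyltransferase Porcupine and with it the secretion of Wnt ligands. The IWP2 dose is not given in the labels. No library of undifferentiated cells was among the samples, and bulk RNA was measured, so fewer cells of a type and less RNA per cell cannot be told apart.

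When Wnt ligands reach their receptors, beta-catenin escapes destruction in the cytoplasm and enters the nucleus. There it binds the N-terminus of TCF/LEF proteins, which sit on DNA through an HMG box. Without beta-catenin, the same proteins recruit TLE (Groucho) co-repressors, and BCL9 links beta-catenin to PYGO proteins for activation. TCF7L1 is known mainly as a repressor in pluripotent cells, while LEF1 and TCF7 are better known as partners of beta-catenin in activation. LEF1 and TCF7 are also known as Wnt target genes, so the comparison asked which TCF/LEF gene had RNA that depended on Wnt secretion at the start of mesoderm formation.

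LEF1 and TCF7 fell with IWP2, and TCF7L1 and TCF7L2 rose. LEF1 showed by far the largest change of the family, 49.8-fold lower in mean FPKM (fragments scaled by gene length and library size), whereas TCF7 was 2.10-fold lower. TCF7L1 was 2.39-fold higher and TCF7L2 2.42-fold higher. Among the TLE genes, TLE3 and TLE2 fell and TLE1 rose, while TLE4, BCL9 and CTNNB1 itself did not pass the test. In all, 3 of the 10 genes were called higher and 4 lower by limma on log2(FPKM + 1) with a Benjamini-Hochberg adjusted p under 0.05. Over all 14022 genes tested, 15.2% were called, 6.75% higher and 8.44% lower. In 8 of the 10 genes the groups did not overlap, 4 higher and 4 lower with IWP2, while among all genes tested 59.8% did not, 27.9% higher and 31.9% lower. The median absolute log2 fold change was 0.741 over the 10 genes and 0.215 over all genes tested. All 10 genes had a mean of at least 1 FPKM over the 4 libraries, but LEF1 reached it only through the DMSO group.

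TCF/LEF proteins recognise short sites that share the letters CAAAG. The forms searched were AACAAAG, its variant ATCAAAG, its variant TACAAAG and its variant TTCAAAG, on both strands in windows from 250 bases before to 50 after RefSeq transcription starts (GRCh38.p14), and matches were shown to let the letters be seen beside the values of the genes. A window was found for each of the 10 genes, 17 in all, and 3 of these, or 17.6%, held a match. Among all 35116 windows, 13.8% held one. The matches lay at 1 of the starts each of TCF7, TCF7L2 and TLE4. The matched starts lay 8907 bases inside the 5′ end of TCF7 as the table gives it, 176383 bases inside that of TCF7L2 and 1404 bases inside that of TLE4, and the windows nearest the 5′ ends of these genes held none. Of 17 known Wnt target genes 8 had windows, and 4 of their 11 windows, or 36.4%, held a match. SP5, with 3 matches, is shown beside the members. The stretches were printed 5′ to 3′ on the plus strand, with the matches in capitals. None overlapped an exon of its gene in GENCODE 29.
SP5, chr2:170715159-170715289: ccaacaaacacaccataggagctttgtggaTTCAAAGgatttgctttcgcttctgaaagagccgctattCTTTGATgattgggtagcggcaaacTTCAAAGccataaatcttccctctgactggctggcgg
TCF7, chr5:134123538-134123604: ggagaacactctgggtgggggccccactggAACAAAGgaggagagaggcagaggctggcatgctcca
TCF7L2, chr10:113126470-113126536: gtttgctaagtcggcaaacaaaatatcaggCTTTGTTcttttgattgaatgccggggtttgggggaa
TLE4, chr9:79573033-79573099: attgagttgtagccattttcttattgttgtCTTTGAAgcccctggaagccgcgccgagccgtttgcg
The 3 genes with a match went different ways with IWP2: TCF7 fell, TCF7L2 rose and TLE4 was not called. The single LEF1 window held no match, and its start lay 2655 bases inside the 5′ end of the gene as the table gives it. A match is a run of letters and not a measured binding site.

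LEF1 (ENSG00000138795.9, chr4:108047545-108168956 on GRCh38, minus strand) had 9.34 and 9.70 FPKM in the DMSO libraries and 0.144 and 0.239 FPKM in the IWP2 libraries. The groups were far apart, and both IWP2 values lay well under 1 FPKM. The log2 fold change was -3.14 ± 0.15 (SE, n = 2 a group), with an adjusted p of 0.000609 in limma. On this scale LEF1 had the 75th lowest log2 fold change of the 14022 genes tested. Because 1 FPKM was added to every value, the scale understates the change of a gene that ends so low, and with 0.1 FPKM added the log2 fold change was -5.06. LEF1 was the single member called in each of the 4 fits that left out 1 library, with adjusted p between 0.01 and 0.0246.

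TCF7 (ENSG00000081059.19, chr5:134114711-134151865, plus strand) had 16.7 and 17.2 FPKM in the DMSO libraries and 7.96 and 8.15 FPKM in the IWP2 libraries. Unlike LEF1 it remained clearly present with IWP2, at a mean of 8.05 FPKM ± 0.13 (SD, n = 2). The 2 groups did not overlap, and the spread within each was small beside the gap. The log2 fold change was -0.99 ± 0.10 (SE), with an adjusted p of 0.0045 in limma. The call was lost without IWP2 replicate 1 (adjusted p = 0.0727) and without IWP2 replicate 2 (adjusted p = 0.0723), with the lone IWP2 library then assumed to vary like the DMSO pair. Both LEF1 and TCF7 are known to make full-length forms and shorter forms that lack the beta-catenin binding end. GENCODE 29 lists 21 transcripts of LEF1 and 24 of TCF7, and the table gives 1 value per gene, so these forms were not told apart.

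TCF7L1 (ENSG00000152284.4, chr2:85133410-85310388, plus strand) had 7.09 and 7.37 FPKM in the DMSO libraries and 15.8 and 18.7 FPKM in the IWP2 libraries. Both IWP2 values were over the DMSO values. The log2 fold change was 1.15 ± 0.12 (SE), with an adjusted p of 0.00538 in limma. TCF7L2 (ENSG00000148737.16, chr10:112950250-113167678, plus strand), a family member expressed widely in adult and embryonic tissues, had 9.01 and 12.3 FPKM in the DMSO libraries and 25.3 and 26.4 FPKM in the IWP2 libraries. The DMSO values of TCF7L2 were the more scattered, but neither came near the IWP2 values. The log2 fold change of TCF7L2 was 1.22 ± 0.16 (SE), with an adjusted p of 0.00904 in limma. Without IWP2 replicate 1 the adjusted p was 0.0588 for TCF7L1 and 0.105 for TCF7L2, and without IWP2 replicate 2 it was 0.0804 and 0.115, so neither was called there. Both were called without either DMSO library.

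**Figure D1:**
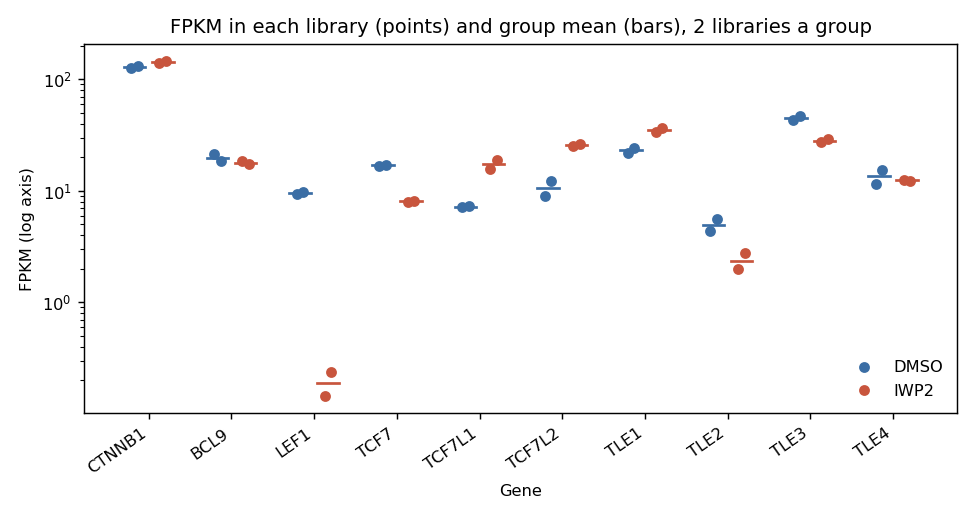
FPKM on a log axis for each of the 10 genes in the 2 DMSO libraries (blue points) and the 2 IWP2 libraries (red points), with a short line at each group mean. LEF1 drops from a mean of 9.52 to 0.191 FPKM, while TCF7L1 and TCF7L2 lie higher with IWP2 and CTNNB1 stays over 125 FPKM in all 4 libraries.

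The make-up of the TCF/LEF pool was therefore different between the groups. The 4 genes together had 42.1 and 46.6 FPKM in the DMSO libraries and 49.2 and 53.5 FPKM in the IWP2 libraries, so the sum was somewhat higher with IWP2. LEF1 and TCF7 together made up 61.8% and 57.7% of this sum with DMSO and 16.5% and 15.7% with IWP2. LEF1 alone went from a mean share of 21.5% ± 0.96 to 0.369% ± 0.109 (SD, n = 2 a group). TCF7L2 was the largest contributor with IWP2, at 50.4% ± 1.5, while TCF7 was the largest with DMSO, at 38.2% ± 1.9. TCF7L1 had 16.3% ± 0.7 with DMSO and 33.5% ± 2.0 with IWP2. FPKM is scaled per length, so levels of different genes can be set beside each other within a library, and the depth of a library cancels in a share. These are shares of RNA and not of protein.

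**Figure D2:**
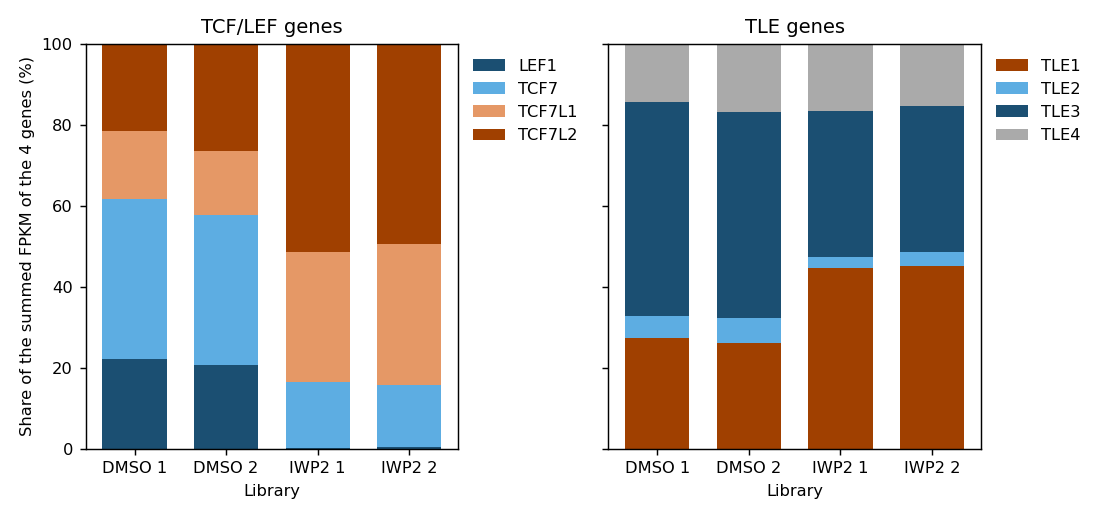
Stacked bars give each gene's share, in percent, of the summed FPKM of the 4 TCF/LEF genes (left) and of the 4 TLE genes (right) in each of the 4 libraries. LEF1 and TCF7 fill 57.7% to 61.8% of the TCF/LEF bar with DMSO and 15.7% to 16.5% with IWP2, and TLE1 and TLE3 change places as the largest TLE gene.

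The unequal response within the family was also put as ratios to TCF7L1, which take out any shared change. The log2 ratio of LEF1 to TCF7L1, with 1 FPKM added to each, was 0.35 in both DMSO libraries and -3.88 and -3.99 in the IWP2 libraries. That of TCF7 to TCF7L1 was 1.13 and 1.12 with DMSO and -0.91 and -1.11 with IWP2. In both cases the groups were far apart, and the two-sided exact permutation test gave p = 0.333, the smallest that 2 against 2 libraries allow. The log2 ratio of TCF7L2 to TCF7L1 was 0.31 and 0.67 with DMSO and 0.65 and 0.47 with IWP2. Here the groups overlapped, with a mean difference of 0.07 (exact permutation p = 1), and its sign depended on which library was left out.

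TLE proteins are tetrameric co-repressors brought to DNA by TCF/LEF and other factors. TLE3 (chr15:70047790-70098176, minus strand) was the most abundant TLE gene with DMSO, at 42.8 and 47.1 FPKM, and had 27.4 and 29.1 FPKM with IWP2. It was 1.59-fold lower, with a log2 fold change of -0.65 ± 0.09 (SE) and an adjusted p of 0.0125 in limma. TLE1 (chr9:81583683-81689305, minus strand) had 22.0 and 24.2 FPKM with DMSO and 34.0 and 36.4 FPKM with IWP2. It was 1.52-fold higher, with a log2 fold change of 0.59 ± 0.10 (SE) and an adjusted p of 0.0184 in limma. The 2 genes thus changed places, each with separate groups. TLE1 held 26.7% ± 0.7 of the summed TLE level with DMSO and 45.0% ± 0.3 with IWP2, and TLE3 held 52.0% ± 1.5 and 36.1% ± 0.03 (SD, n = 2 a group). The sum itself was 80.6 and 92.3 FPKM with DMSO and 75.8 and 80.5 FPKM with IWP2.

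TLE2 (chr19:2997638-3047635, minus strand) was the lowest TLE gene, with 4.38 and 5.59 FPKM in the DMSO libraries and 1.98 and 2.76 FPKM in the IWP2 libraries. It was 2.10-fold lower, and its adjusted p of 0.0464 in limma lay just inside the threshold. Its call was lost without any 1 of the 4 libraries (adjusted p from 0.0845 to 0.234) and with quantile normalization (0.0562). TLE4 (chr9:79571773-79726882, plus strand) had 11.5 and 15.4 FPKM with DMSO and 12.5 and 12.3 FPKM with IWP2. Both IWP2 values lay between the DMSO values, and the log2 fold change of -0.10 had a 95% interval from -0.49 to 0.30 (adjusted p = 0.733 in limma). The call of TLE1 was lost without any 1 library (adjusted p from 0.051 to 0.155), while that of TLE3 was kept only without DMSO replicate 1 (adjusted p = 0.038) and ranged from 0.0588 to 0.12 without the others.

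CTNNB1 (ENSG00000168036.16, chr3:41194837-41260096, plus strand), which encodes beta-catenin, was the most abundant of the 10 genes in every library. It had 126 and 132 FPKM in the DMSO libraries and 141 and 147 FPKM in the IWP2 libraries. The groups did not overlap, but the log2 fold change of 0.16 had a 95% interval from -0.04 to 0.36 and an adjusted p of 0.253 in limma. Beta-catenin is controlled mainly through the stability of the protein, which was not measured. BCL9 (chr1:147541412-147626216, plus strand) had 21.3 and 18.5 FPKM with DMSO and 18.6 and 17.2 FPKM with IWP2. Its values interleaved, with a log2 fold change of -0.14 and a 95% interval from -0.42 to 0.14 (adjusted p = 0.464 in limma).

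**Figure D3:**
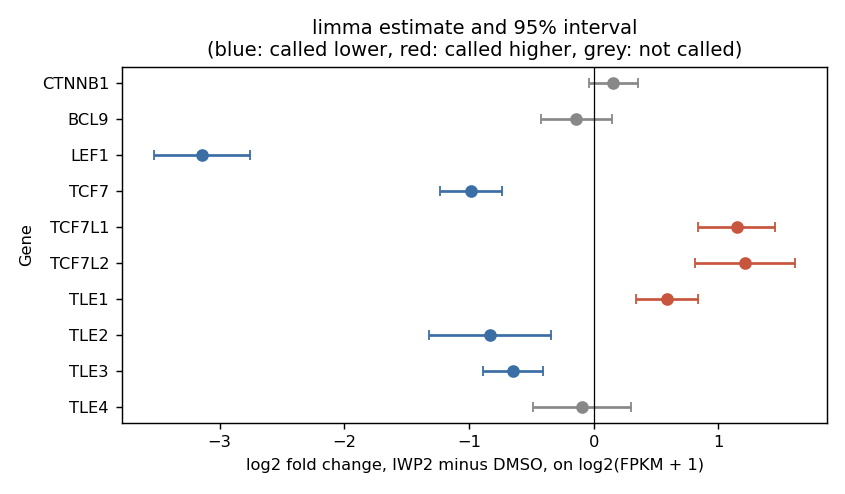
The limma log2 fold change (IWP2 minus DMSO, on log2(FPKM + 1)) of each of the 10 genes with its 95% interval, where blue points were called lower, red points higher and grey points not called. LEF1, at -3.14, stands apart from TCF7, at -0.99, and the intervals of CTNNB1, BCL9 and TLE4 include 0.

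In order of level, the DMSO libraries had CTNNB1, TLE3, TLE1, BCL9, TCF7, TLE4, TCF7L2, LEF1, TCF7L1 and TLE2. The ranges of TLE4 and TCF7L2, and those of TCF7L2 and LEF1, overlapped, and the other neighbours did not. With IWP2 the order was CTNNB1, TLE1, TLE3, TCF7L2, BCL9, TCF7L1, TLE4, TCF7, TLE2 and LEF1, and only BCL9 and TCF7L1 overlapped. LEF1 thus went from place 8 to place 10, and TCF7L2 from place 7 to place 4.

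The libraries labelled 1 and those labelled 2 differed in some short transcripts in both groups, such as MT-ATP8, with 33374 and 26236 FPKM in the first and 9279 and 11660 in the second. The members were therefore also compared within each number. The difference in log2(FPKM + 1) between the libraries numbered 1 and between those numbered 2 was -3.18 and -3.11 for LEF1, -0.98 and -0.99 for TCF7, 1.05 and 1.24 for TCF7L1, and 1.39 and 1.04 for TCF7L2. It was 0.61 and 0.57 for TLE1, -0.85 and -0.81 for TLE2 and -0.63 and -0.68 for TLE3, so each called member moved the same way within both numbers. For TLE4 the difference was 0.12 and -0.31.

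Markers of cell state moved with the same comparison, in which 6.75% of all genes tested were called higher and 8.44% lower. All 8 markers of primitive streak and nascent mesoderm (T, MIXL1, EOMES, MESP1, MESP2, TBX6, APLNR and PDGFRA) were called lower, and their summed level was 897 to 1118 FPKM with DMSO and 49.8 to 53.6 FPKM with IWP2. Of 7 pluripotency markers, 4 were higher and 1, TDGF1, was lower, and their sum was 1190 to 1369 FPKM with DMSO and 2490 to 2495 FPKM with IWP2. POU5F1 alone had means of 661 and 1849 FPKM. NANOG, at 23.0 and 9.54 FPKM with DMSO and 33.6 and 27.5 FPKM with IWP2, was not called. LIN28A, at means of 253 and 245 FPKM, was not called either. SOX2 had 0.193 and 0.174 FPKM with DMSO and 35.6 and 36.1 FPKM with IWP2. Of 5 definitive endoderm markers 4 were lower, with sums of 259 to 306 FPKM and 87.6 to 103 FPKM. SOX17, at means of 129 and 87.3 FPKM, was not called. Of 7 amnion or trophoblast markers 4 were tested and 2 were higher, with sums of 63.7 to 63.8 FPKM and 80.6 to 87.1 FPKM, and CGB5 was listed at 0 in each library. Neuroectoderm markers had 1 gene tested, OTX2, which was lower and is known also from the anterior streak, with sums of 57.4 to 61.9 FPKM and 2.69 to 3.02 FPKM for the list. Endothelial and blood markers had 1 gene tested, KDR, which was lower, with sums of 53.7 to 61.5 FPKM and 36.4 to 39.1 FPKM for the list. KDR alone had 53.2 and 60.4 FPKM with DMSO and 38.6 and 35.7 FPKM with IWP2. GATA1 was listed at 0 throughout, and PECAM1, CDH5, TAL1, PTPRC and SPN were at or below 0.492 FPKM in every library. Of 3 tested fibroblast markers 1, LUM, was lower, with sums of 87.7 to 106 FPKM and 67.2 to 68.2 FPKM, and DCN was at or near 0. LUM had a mean of 2.95 FPKM with DMSO, while COL1A2 and COL1A1, at 61.7 and 32.2 FPKM, were not called. MESP1, MESP2, PDGFRA, FOXA2, HHEX and LUM had a mean under 1 FPKM with IWP2 and passed the filter on low values only through the DMSO group. KRT7 and SOX2 passed it only through the IWP2 group. With no filter beyond a value above 0, 6 streak markers and 1 endoderm marker were called lower and 2 pluripotency markers higher. KDR and the amnion or trophoblast markers were not called there. Without IWP2 replicate 1 or without IWP2 replicate 2, which left 1 library in that group, calls were lost in each marker list but neuroectoderm. KDR and LUM were not called in either fit. KDR was also not called without DMSO replicate 2. The part of these shifts in the changes of the TCF/LEF and TLE genes was not tested.

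Many, but not all, genes known as targets of beta-catenin and TCF/LEF fell with IWP2. Of 16 tested genes in a list of 17, 10 were called lower and 0 higher by limma. That is 62.5%, against 15.2% of all genes tested, of which 8.44% were called lower. At an unadjusted p under 0.05 in limma, 11 were lower and 0 higher, beside 4245 of all 14022 genes tested in either direction. Of the 10, SP5, LGR5, DKK1, CDX2 and CDX1 had a mean under 1 FPKM with IWP2 and, like LEF1, passed the filter on low values only through the DMSO group. The list's median log2 fold change was -1.11, against -0.017 over all genes tested. SP5, a zinc finger factor, had 53.2 and 47.0 FPKM with DMSO and 0.379 and 0.363 FPKM with IWP2, a log2 fold change of -5.22 (adjusted p = 0.000186). LGR5, an R-spondin receptor, had a log2 fold change of -4.54, the secreted inhibitor DKK1 had -4.24, and the homeobox genes CDX2 and CDX1 had -2.42 and -1.79, each called lower. NKD1, an inhibitor acting on Dishevelled, had 38.2 and 52.3 FPKM with DMSO and 1.70 and 1.56 FPKM with IWP2, a log2 fold change of -4.12 (adjusted p = 0.000423).

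Other called targets, like TCF7, kept a larger part of their level. AXIN2, a scaffold of the destruction complex that is induced by Wnt, had 14.2 and 15.2 FPKM with DMSO and 6.45 and 5.58 FPKM with IWP2, a log2 fold change of -1.16 (adjusted p = 0.0048). T (Brachyury), the T-box factor of the primitive streak, had 21.6 and 18.5 FPKM with DMSO and 9.40 and 10.4 FPKM with IWP2, a log2 fold change of -0.94 (adjusted p = 0.00899). The remaining 6 tested genes of the list were not called, with log2 fold changes of -0.63 for TNFRSF19, -0.17 for RNF43, -0.08 for CCND1, 0.19 for both MYC and ZNRF3 and 0.28 for NKD2. DKK4, at 1.99 and 1.34 FPKM with DMSO, was listed at 0 in both IWP2 libraries and was under the mean for testing. Without IWP2 replicate 1 and without IWP2 replicate 2, 6 and 5 of the targets were called.

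Other nuclear partners of beta-catenin and TCF/LEF changed less. Of 22 tested genes in a list of 23, 5 were called lower and 1 higher, or 27.3% against 15.2% of all genes tested. The median log2 fold change was -0.10. The median absolute log2 fold change was 0.152, against 0.215 over all genes tested. PYGO1, which binds BCL9, went from 2.85 and 3.16 FPKM to 0.633 and 0.748 FPKM, a log2 fold change of -1.24 (limma adjusted p = 0.0108). Like LEF1, PYGO1 passed the filter on low values only through the DMSO group. The kinase gene HIPK2 had a log2 fold change of -0.99. TBL1X and TBL1XR1, which encode exchange factors for co-repressors, had -0.90 and -0.80. AES, a short relative of the TLE proteins, had -0.42, and CTBP2, a co-repressor, was the single one called higher, at 0.49. None of these 6 was called without IWP2 replicate 1 or without IWP2 replicate 2.

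In the destruction complex and Dishevelled list, 2 of 15 tested genes were called lower and 0 higher by limma, or 13.3% against 15.2% of all genes tested. At an unadjusted p under 0.05 in limma, 3 were lower and 0 higher, beside 4245 of all 14022 genes tested in either direction. The called genes were AXIN2 and APC, and APC, a scaffold of the complex, had a mean of 8.83 FPKM ± 1.65 with DMSO and 4.19 FPKM ± 0.42 with IWP2 (SD, n = 2 a group, limma adjusted p = 0.023). Neither was called without IWP2 replicate 1, without IWP2 replicate 2 or with no filter on low values, and 1 was without DMSO replicate 2. AXIN1, the constitutive relative of AXIN2, had 20.2 and 20.4 FPKM with DMSO and 20.1 and 20.7 FPKM with IWP2. Of the 8 junction genes, 2 were called higher and 1 lower, or 37.5% against 15.2% of all genes tested. CDH1, which encodes E-cadherin, was higher at 120 and 124 FPKM against 32.6 and 29.7. VCL, which links junctions to actin, was higher at a log2 fold change of 1.20. CDH2, which encodes N-cadherin, was lower at 14.4 and 15.4 FPKM against 73.8 and 67.1. Both cadherins bind beta-catenin at the membrane, and the remaining 5 junction genes were not called.

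**Figure D4:**
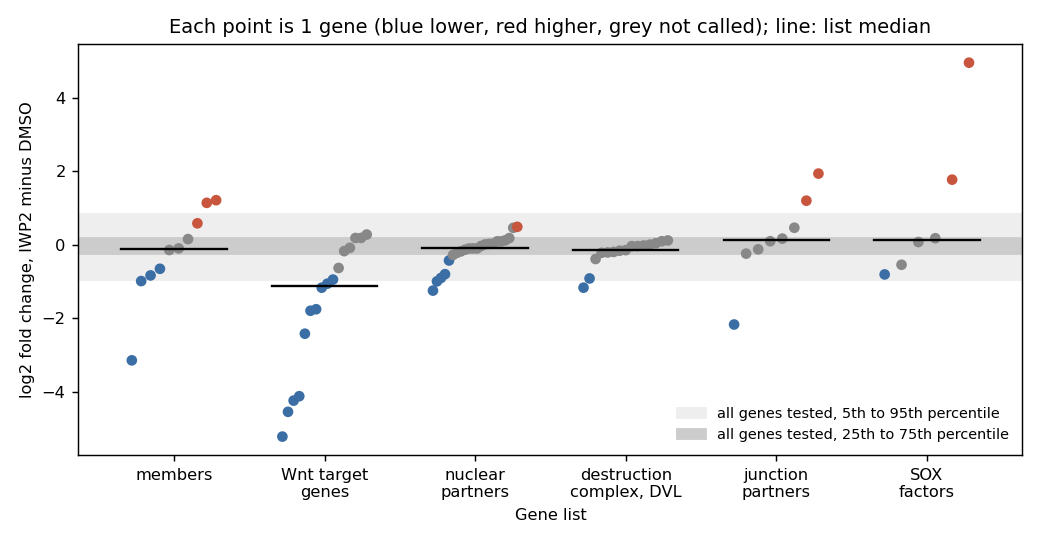
Each point is the log2 fold change (IWP2 minus DMSO) of 1 tested gene in the list named on the horizontal axis, with the list median as a black line and the spread of all genes tested as grey bands. The 10 members spread to both sides of 0, from -3.14 to 1.22, while the called Wnt target genes lie below 0 and most nuclear partners and destruction complex genes lie near it.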

How the data were processed

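RNA was collected from day 2 cultures of H1 cells, 2 labelled DMSO and 2 labelled IWP2, and libraries were made with an Illumina TruSeq kit from 2 ug of total RNA. The authors deposited 1 table of FPKM values per gene and library, in which the columns marked with a minus sign before IWP2 were taken as the DMSO libraries. The header names no unit: FPKM was taken from the description of the table and fits values whose column sums differ, and the levels set between genes rest on it. Per the labels, BWA, Bowtie and RSEM were used, with no versions or roles, and the build was named as hg19. The gene coordinates in the deposited table are however those of GRCh38: of 55723 gene IDs shared with GENCODE 29, 55629 had the same coordinates once 1 was added to the start, and coordinates are given in that form. The column sums were 616418 to 653850 FPKM. Read counts were not part of the table, so the number of reads behind a value is unknown. The steps between low values gave relative depths of 0.89, 1.1 and 0.95 for DMSO 2, IWP2 1 and IWP2 2 against DMSO 1.

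Genes with a mean of at least 1 FPKM over the 4 libraries were tested with limma 3.58.1 (R 4.3.3) on log2(FPKM + 1), with an intensity trend, 2 residual degrees of freedom and Benjamini-Hochberg adjustment over all genes tested. Errors of fold changes are limma's standard errors. Nothing in the labels says that replicates were separate cultures, so p-values measure the spread between these libraries only. Alternatives covered the added constant, the filter, the scaling, the trend, a replicate block and each library left out. All 10 members were named. From each of 5 other lists (Wnt target genes, nuclear partners, destruction complex and Dishevelled, junction partners, SOX factors) up to 6 called genes with the largest fold changes were named, together with AXIN2, SP5, NKD1 and T, and marker lists checked cell state. AXIN1, DKK4, MT-ATP8, the Wnt target genes not called and the marker genes given by name were added after their values were seen. The members and lists were chosen with earlier results of these data known.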

Additional observations from a re-analysis of the deposited data

How the results depend on the processing

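LEF1 was called lower in each of the 11 alternatives that could test it. TCF7 was called in 10 of 12, TCF7L1 and TCF7L2 in 9 each, TLE3 in 8, TLE1 in 7 and TLE2 in 5 of 11. No called member changed direction. TLE4, which was not called, had a log2 fold change of 0.10 without DMSO replicate 2 and of -0.29 without DMSO replicate 1. With no filter beyond a value above 0, 28917 genes were tested and 381 were called, 118 higher and 263 lower, of which 358 were among the 2129 (946 higher and 1183 lower) of the reported fit. Of the members, LEF1 and TCF7, that is 2 lower and 0 higher, were then called, with 4 lower and 3 higher at an unadjusted p under 0.05 in limma. Among nuclear partners 0 were called lower and 0 higher (6 and 2 unadjusted), in the destruction complex list 0 lower (5 unadjusted) and among SOX factors 0 lower (1 unadjusted). In the reported fit, 4245 of all 14022 genes tested were under an unadjusted p of 0.05, and this number was not taken for the alternatives. A mean of at least 5 FPKM removed LEF1 and TLE2 from the test and left 2 members called lower, 3 nuclear partners lower and 1 SOX factor higher. Leaving out 1 library gave 238 to 1375 called genes, 58 to 657 higher and 180 to 718 lower, with the low ends where an IWP2 library was left out. Fewer members were then called in each of these fits. Called nuclear partners were 0 higher and 0 to 3 lower, destruction complex genes 0 to 2 lower, junction genes 1 to 3 higher, Wnt target genes 5 to 10 lower, and SOX factors 1 to 2 higher and 0 to 1 lower. The difference in the log2 ratio of TCF7L2 to TCF7L1 ranged from -0.11 to 0.25, and was -0.11 without DMSO replicate 1 and -0.02 without IWP2 replicate 1. The cause of the lost calls was not tested. Each fit without 1 library also had fewer samples. With the replicate number as a block (replicate block), 1927 genes were called, 862 higher and 1065 lower, and the same 7 members. The labels do not say that a number marks a shared culture or day. Deviations of same-numbered libraries from their group means correlated across genes at 0.152. No count test was run, since the table holds no counts.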

Other observations

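SOX factors carry the same kind of HMG box as TCF/LEF proteins, and several bind beta-catenin. Of 6 tested genes in a list of 7, SOX2 and SOX3 were called higher with IWP2 and SOX11 lower in limma. That is 50%, against 15.2% of all genes tested. SOX2 and SOX3 passed the filter on low values only through the IWP2 group. SOX3 had 0.488 and 0.445 FPKM in the DMSO libraries and 4.08 and 3.97 FPKM in the IWP2 libraries, a log2 fold change of 1.78 (adjusted p = 0.00356). SOX11 had 15.5 and 16.0 FPKM with DMSO and 8.31 and 8.87 FPKM with IWP2, a log2 fold change of -0.80 (adjusted p = 0.00851). With IWP2, SOX2, at 35.6 and 36.1 FPKM, was thus more abundant than any of the TCF/LEF genes in the same libraries, and with DMSO it was below each of them. SOX4 and SOX17, which were not called, were above each TCF/LEF gene in every library, and above SOX2 with IWP2. SOX4 had 40.4 and 30.5 FPKM with DMSO and 39.9 and 40.1 FPKM with IWP2. SOX17 had 155 and 104 FPKM with DMSO and 79.7 and 94.9 FPKM with IWP2. SOX9, also not called, had 1.66 and 1.29 FPKM with DMSO and 1.52 and 1.69 FPKM with IWP2.

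Among the genes with profiles most like that of LEF1 over the 4 libraries, by Euclidean distance of log2(FPKM + 1) centred per gene, were COLEC12 (distance 0.115), NR0B1 (0.13), SP6 (0.165) and SLPI (0.172). Those most like TCF7 were MFSD14A (0.048), C6orf132 (0.05), GNG11 (0.053), CASD1 (0.066) and MAN1A1 (0.071). With 4 libraries in 2 groups, the distance mostly reflects the size of the difference between the groups.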
